A study of Glycine max with 6 samples.

Results

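The genes described here stood low in the leaf libraries HN44-1 and SN14-2 of soybean (Glycine max). Total RNA of leaves was sequenced from 2 genotypes, HN44 (libraries HN44-1, HN44-2 and HN44-3) and SN14 (SN14-1, SN14-2 and SN14-3), which the series sets apart by their water use efficiency without saying which is the more efficient. The growth note speaks of plants in a field in Harbin under a code that no label ties to HN44 or SN14, and the labels name no transgene, mutation, treatment, plant age or sampling time for either genotype. No label says that libraries of a genotype are separate plants. A p-value below sets the difference between the genotypes against the spread among these libraries, part of which may be technical.

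Members were chosen by their measured values. A gene with an NCBI number was eligible when its mean over the 6 libraries lay from 5 to below 500 FPKM (fragment counts scaled by gene length and library size, as the authors deposited them) and it carried no name of 13 families left out of the set, such as WRKY, NAC, MYB, bZIP and GASA. It was a member when HN44-1 stood at least 1 below HN44-2 on the log2(FPKM + 1) scale, and SN14-2 at least 1 below the mean of SN14-1 and SN14-3. The rule found 279 genes among 14957 eligible ones, which is 1.87%, out of 41759 genes in the table. A further 20 genes met the same value conditions and belong to a left-out family, among them 5 GASA and 4 WRKY genes. The differences within each genotype chose the members, so they are given below as a description and carry no test.

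The 18 members that have a gene symbol or synonym include genes of calcium and cold signalling and of hormone metabolism. In plant cells a rise in calcium is read by calmodulins and calmodulin-binding proteins and ended by calcium pumps. In Arabidopsis, DREB1 (CBF) transcription factors switch on cold-response genes, and they are themselves induced within a short time of chilling. Gibberellin 20-oxidases make precursors of the active gibberellins that promote stem and leaf growth, and CYP707A enzymes break down abscisic acid, the hormone that closes stomata under drought. The remaining 261 members carry no name in the annotation used here beyond a LOC or gene number, and no role is given for them.

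Facts of the whole series touch these values. Between 37244 and 37939 genes were above 0 FPKM in a library, and the share of all FPKM that fell to the top 10 genes was 12.6% in HN44-1 and 14.5% to 20.6% elsewhere. FPKM is already scaled for depth, read totals were not used here, and the depth and counting error behind each value are therefore unknown. Of 11 leaf markers looked up by name, 5 were found and none was at 0; the small Rubisco subunit gene RBCS1 stood between 14284 and 37597 FPKM. Their summed level was 28547 FPKM in HN44-1, 47913 in HN44-2 and 37118 in HN44-3, and 55868 in SN14-1, 55834 in SN14-2 and 57210 in SN14-3. The sum was thus lowest in HN44-1 and not low in SN14-2, and RBCS1 was its largest part in each library. PSAD, RBCS1, LOC100805310 and CAB3 were each lowest in HN44-1, and RCA14 was not. RCA14 stood at 342, 258 and 304 FPKM in HN44-1 to HN44-3 and at 273, 387 and 268 in SN14-1 to SN14-3. The part of these levels in the results below was not tested. Only GY3 of 10 seed markers was found, at 0.03 to 0.07 FPKM, and 0 of 8 nodule and root markers, so that the last check could not be made.

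Across the members, the median level was 3.27 FPKM in HN44-1, 19.3 in HN44-2 and 10.3 in HN44-3. It was 18.4 FPKM in SN14-1, 3.61 in SN14-2 and 16.9 in SN14-3. The medians of HN44-1 and SN14-2 thus lay close, as did those of HN44-2, SN14-1 and SN14-3. Single members differed in both directions. On the log2(FPKM + 1) scale HN44-2 stood at least 1 above the mean of SN14-1 and SN14-3 in 25.4% of members. It stood at least 1 below that mean in 29.0%. For all eligible genes these shares were 5.54% and 4.21%. HN44-1 stood at least 1 above SN14-2 in 15.1% of members and at least 1 below in 24.0%. For all eligible genes these were 8.06% and 6.22%. Summed over the members, FPKM made up 0.202% of the total in HN44-1 and 0.267% in SN14-2, against 0.571% to 1.59% in the other libraries. The median of the other 14678 eligible genes stayed between 11.3 and 14.05 FPKM in the 6 libraries. In bulk leaf RNA, fewer cells of a type and less RNA per cell cannot be told apart.

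**Figure D1:**
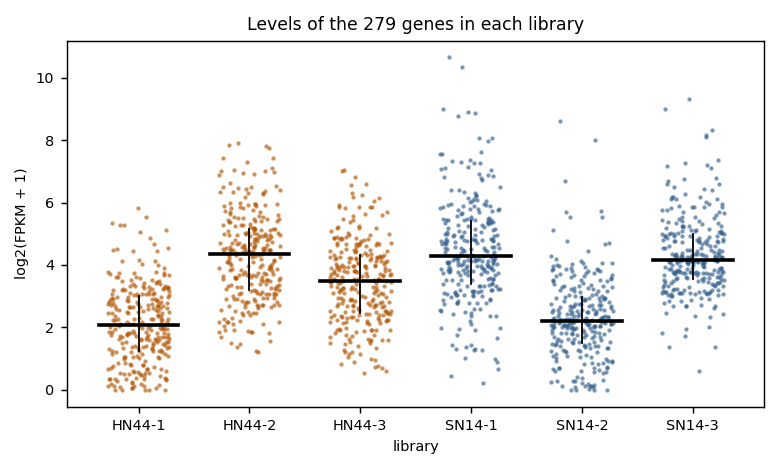
Level of each of the 279 members in each library on the log2(FPKM + 1) scale (points, spread sideways at random), with the median (thick line) and the quartiles (thin line); HN44 is orange and SN14 blue. HN44-1 has the lowest median, at 2.09, SN14-2 lies close to it, and the medians of the other 4 libraries run from 3.50 to 4.35.

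HN44-1 or SN14-2 held the lowest of the 6 values for 276 members, HN44-1 for 140 and SN14-2 for 136. The exceptions were SCTF-1, LOC100305768 and LOC100803653, which were lowest in SN14-1 or SN14-3 because the rule sets SN14-2 against a mean. The highest value lay in SN14-1 for 132 members, in HN44-2 for 108 and in SN14-3 for 39. HN44-1 was under 1 FPKM for 55 members and listed at 0 for 5 of them, and SN14-2 was under 1 FPKM for 42 and listed at 0 for 4. No member was under 1 FPKM in HN44-2, an outcome that the rule itself fixes.

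The difference of HN44-1 from HN44-2 had a median of -1.85 over the members and ran from -5.30 to -1 on the log2(FPKM + 1) scale. That of SN14-2 from the other SN14 libraries had a median of -1.79 and ran from -7.04 to -1.01. Over all eligible genes the medians of the same differences were 0.19 and 0.03. Both differences were -2 or less in 54 members and -3 or less in 13. SN14-2 stood at least 1 below SN14-1 and also at least 1 below SN14-3 in 185 members, and in the rest it did so against 1 of them and their mean.

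The HN44 condition was met by 795 eligible genes, or 5.32%, and the SN14 condition by 617, or 4.13%. Both were met by 35.1% of the 795 and by 45.2% of the 617. The reverse, at least 1 higher in HN44-1 and in SN14-2, was found in 200 eligible genes. The mixed combinations were rarer: 34 genes were low in HN44-1 and high in SN14-2, and 18 were high in HN44-1 and low in SN14-2. Across the 14957 eligible genes the differences of the 2 genotypes, which share no library, had a Pearson r of 0.46 and a Spearman rho of 0.41. These describe these 5 libraries, since genes of a library are not independent replicates.

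**Figure D2:**
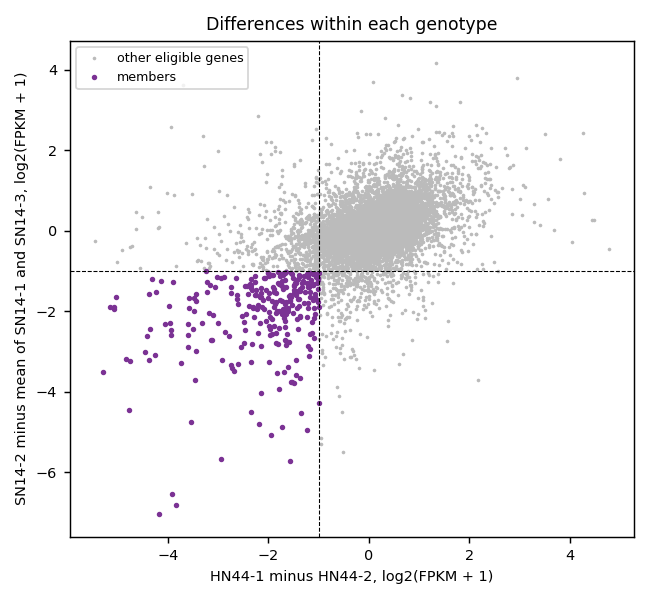
Each eligible gene by its difference of HN44-1 from HN44-2 (x axis) and of SN14-2 from the mean of SN14-1 and SN14-3 (y axis), both in log2(FPKM + 1); dashed lines mark the limit of -1 on each axis. The 279 members (purple) fill the lower left corner, and the upper left and lower right corners beyond the limits hold 34 and 18 genes.

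HN44-3, which the rule used only in the mean, lay between HN44-1 and HN44-2 in 279 of 279 members. On a linear scale from HN44-1 at 0 to HN44-2 at 1 its median position was 0.419, with quartiles at 0.38 and 0.455. Of 1230 other eligible genes that differed by at least 1 between HN44-1 and HN44-2, in 99.8% HN44-3 also lay between them, at a median position of 0.426. Weights of 0.57 on HN44-1 and 0.43 on HN44-2 returned the members' levels in HN44-3 with a median absolute log2 deviation of 0.071. HN44-3 is therefore no separate check of the members' pattern, and fits that count it as a replicate of HN44 may give p-values that are too small.

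Among named members, the transcription factor gene DREB1-like had the largest smaller-of-both differences. The gene, which carries the synonyms CBF and DREB1 and lies on chromosome 9 (36526869 to 36528011), stood at 0.59 FPKM in HN44-1, 43.0 in HN44-2 and 17.7 in HN44-3. It stood at 17.2 FPKM in SN14-1, 0.10 in SN14-2 and 30.9 in SN14-3. Its differences, -4.79 in HN44 and -4.45 in SN14, also led those of all members by this measure, and it was under 1 FPKM in both low libraries. The other 5 eligible DREB genes did not share this pattern: DREB3, for example, stood between 80.9 and 84.6 FPKM in HN44 and between 51.4 and 62.9 in SN14.

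STF-3 has the synonym SCOF-1, the name of a cold-inducible zinc-finger factor of soybean. In HN44 its values were 4.12, 36.6 and 16.7 FPKM, and in SN14 they were 7.57, 6.80 and 33.8, so that SN14-1 was about as low as SN14-2. Another gene with the symbol SCOF-1 was low in HN44-1 (5.15 against 17.5 FPKM in HN44-2) and stood at 1.52, 2.31 and 7.83 FPKM in the SN14 libraries, where it missed the limit. SCTF-1 showed the shape of STF-3, at 11.1, 97.5 and 46.2 FPKM in HN44 and 8.31, 8.44 and 45.6 in SN14. PHR16, of the family named for the phosphate starvation response factors of Arabidopsis, stood at 1.03, 4.22 and 2.81 FPKM in HN44 and 11.8, 3.67 and 7.08 in SN14. It was the single member among 24 eligible PHR genes. SRC2, a soybean gene first described as regulated by cold, stood at 8.62, 30.9 and 18.2 FPKM in HN44 and 36.01, 14.5 and 71.8 in SN14.

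At the limit of -1, calcium signalling genes were members singly, beside kin that were not members. SCA1, for a calmodulin-regulated calcium pump, stood at 16.5, 79.7 and 42.96 FPKM in HN44-1 to HN44-3 and at 16.9, 6.54 and 39.3 in SN14-1 to SN14-3. SCA2, the other pump of this name, did not share the pattern, at 18.2, 11.6 and 14.6 FPKM in HN44 and 7.47, 6.83 and 5.53 in SN14. SCAM-4, a divergent calmodulin, stood at 2.75, 6.57 and 4.77 FPKM in HN44 and 9.63, 2.28 and 10.7 in SN14. The other 3 eligible calmodulin genes of this series were not members, and SCAM-3, for example, stood between 50.7 and 62.7 FPKM in HN44 and between 42.9 and 70.1 in SN14. IQD13, of a family of calmodulin-binding proteins, stood at 1.00, 5.24 and 2.75 FPKM in HN44 and 26.2, 6.24 and 12.4 in SN14. Of 21 eligible IQD genes, 2 met the HN44 condition, 4 met the SN14 condition and 1, IQD13, met both. IQD66 and IQD67 met the SN14 condition and missed the HN44 limit narrowly, at -0.87 and -0.90. IQD25 went the other way, with differences of 1.99 in HN44 and 1.27 in SN14.

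Among protein kinase genes, the WNK genes WNK1 and WNK2 were members. WNK kinases lack a lysine that other kinases use in catalysis. WNK1 stood at 5.42, 13.9 and 8.23 FPKM in HN44 and 12.7, 4.90 and 10.6 in SN14, and WNK2 at 3.34, 8.40 and 5.34 in HN44 and 13.4, 3.25 and 7.16 in SN14. Both WNK genes were lowest in SN14-2 and next lowest in HN44-1, while the highest value lay in HN44-2 for WNK1 and in SN14-1 for WNK2. WNK12 went the other way, with 20.4, 9.18 and 14.1 FPKM in HN44 and 1.58, 9.27 and 3.92 in SN14, and the other 3 of the 6 eligible WNK genes met neither condition in either direction.

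The hormone genes were members from different pathways. GA20OX3, for a gibberellin 20-oxidase, stood at 0.61, 3.32 and 2.04 FPKM in HN44-1 to HN44-3 and at 30.5, 4.59 and 20.02 in SN14-1 to SN14-3. Its HN44 values were all below its SN14 values, and the lowest SN14 value was that of SN14-2. CYP707A1A, for an abscisic acid hydroxylase, stood at 5.92, 29.6 and 15.5 FPKM in HN44 and 27.4, 1.51 and 57.6 in SN14, and its genotype ranges overlapped. ACS stood at 9.51, 20.3 and 12.9 FPKM in HN44 and 16.2, 2.97 and 4.02 in SN14, so that SN14-3 was low as well. Of the other 4 eligible gibberellin oxidase genes none met both conditions, and GA3OX6 went the other way in SN14, at 0.75, 4.08 and 0.87 FPKM in SN14-1 to SN14-3.

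Growth, light-harvesting and lipid genes, and PRP, for which no role is given here, complete the named members described. XTH1, for a xyloglucan endotransglucosylase that remodels the cell wall, stood at 0.29, 3.64 and 1.63 FPKM in HN44 and 49.5, 3.09 and 14.8 in SN14. LOC547819, with the synonym LHCP for a light-harvesting chlorophyll protein, stood at 12.1, 155 and 71.7 FPKM in HN44 and 1298, 256 and 507 in SN14. Its lower coordinate on chromosome 16 (32443113) and its strand are those of LOC100799813, also a member and the most abundant one. LOC100799813 stood at 24.6, 230 and 112 FPKM in HN44 and 1605, 392 and 632 in SN14, and reads may be divided between these overlapping genes, so they count as 1 observation. The light-harvesting gene LHCB1-7 met the HN44 condition, at 55.7 against 372 FPKM, and missed the SN14 one, at 1291, 476 and 511. LOC100805310 and CAB3, far more abundant and looked up as leaf markers, were too abundant to be eligible. PRP stood at 1.56, 8.73 and 4.72 FPKM in HN44 and 29.3, 5.52 and 5.44 in SN14, where SN14-1 alone was high. SDP1-4, named for a triacylglycerol lipase of Arabidopsis, stood at 4.57, 15.3 and 8.97 FPKM in HN44 and 8.15, 4.43 and 12.8 in SN14.

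**Figure D3:**
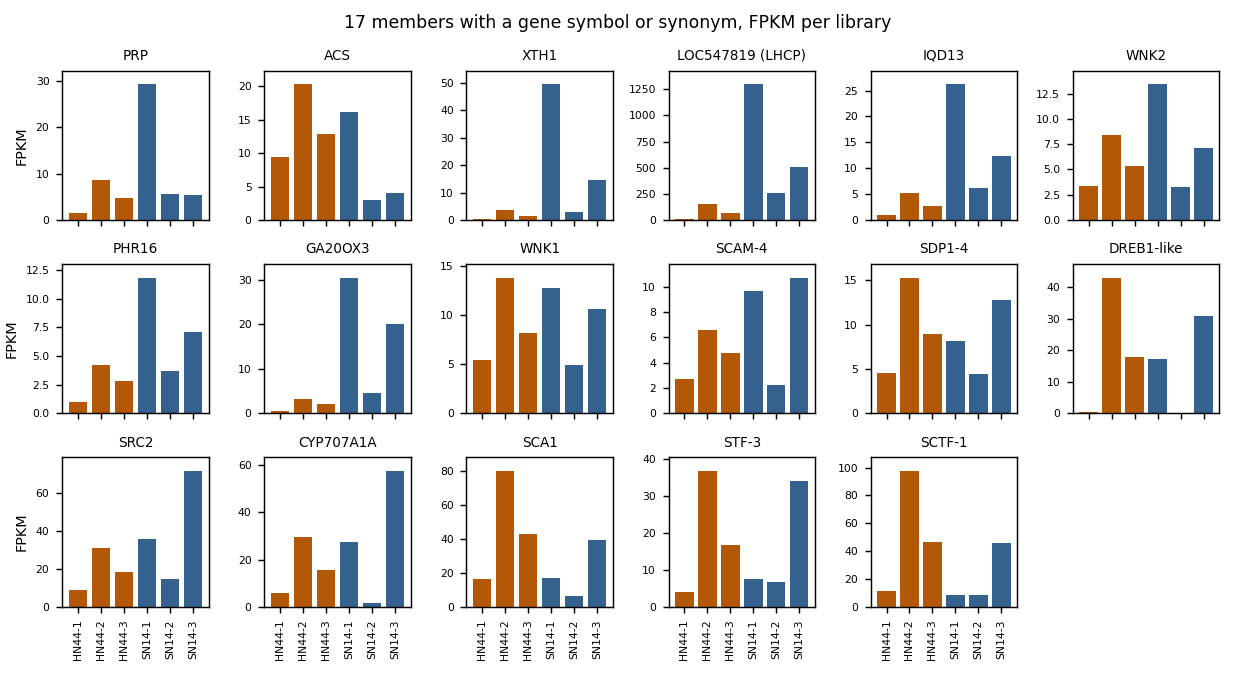
FPKM of 17 named members in each library (1 bar per library, HN44 orange and SN14 blue, linear axes from 0 that differ between panels), ordered by the difference of SN14-1 from SN14-3, largest first. Each gene has a lower bar in HN44-1 than in HN44-2, from 0.59 against 43.0 in DREB1-like to 9.51 against 20.3 in ACS.

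Among members with no name, the largest differences belonged to short genes on chromosomes 13 and 14. LOC100791695 stood at 1.06, 36.2 and 14.5 FPKM in HN44-1 to HN44-3 and 159, 0.16 and 143 in SN14-1 to SN14-3. LOC100792222 stood at 3.00, 59.6 and 27.7 FPKM in HN44 and 249, 1.81 and 272 in SN14. LOC100787440 stood at 1.48, 34.5 and 13.02 FPKM in HN44 and 163, 0.46 and 164 in SN14. In all 3 genes SN14-1 and SN14-3 stood close to each other and far above SN14-2, and the high SN14 libraries stood above the high HN44 library. LOC100306332 had the largest difference in HN44, with 2.50, 137 and 59.04 FPKM in HN44 and 17.7, 1.66 and 47.2 in SN14. LOC100793598, LOC100789097 and LOC100803929 complete the 8 members with the largest smaller-of-both differences, and their HN44-2 values were 59.7, 15.2 and 30.5 FPKM against 4.22, 0.46 and 1.36 in HN44-1.

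The most abundant members after the overlapping pair on chromosome 16 were LOC100798036, LOC100794117 and LOC100793171. LOC100798036 stood at 44.96, 240.1 and 132 FPKM in HN44 and 438, 102 and 322 in SN14. LOC100794117 stood at 37.7, 89.5 and 56.8 FPKM in HN44 and 511, 11.5 and 287 in SN14. LOC100793171 stood at 33.8, 125 and 74.7 FPKM in HN44 and 463, 44.96 and 152 in SN14. All 3 were highest in SN14-1, and in each the high SN14 libraries exceeded HN44-2.

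Near the limits the members shade into the rest of the genes. LOC100808420 and LOC100778550 lay just inside the HN44 limit, both at -1, and SLD1.3 and LOC100813839 just outside it, at -0.99 and -0.98. On the SN14 side LOC100527018 and LOC100808242 lay just inside, at -1.01 and -1.03, and LOC100815402 and LOC100777596 just outside, at -0.999 and -0.99. SLD1.3 had 34.1, 68.8 and 46.9 FPKM in HN44 and 162, 19.4 and 104 in SN14.

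The members differed among themselves in which libraries held the high values. The rule did not set SN14-1 against SN14-3, but it used both through their mean and through the 6-library mean. A gene high in only 1 of them can therefore pass. On the log2(FPKM + 1) scale SN14-1 was at least 1 higher in 69 members (24.7%), SN14-3 at least 1 higher in 59 (21.1%), and 151 lay between. Over all eligible genes the same shares were 7.65% and 6.04%. The 69 had medians of 2.08, 8.60 and 4.59 FPKM in HN44-1 to HN44-3 and of 43.5, 4.53 and 13.6 in SN14-1 to SN14-3. They include XTH1, LOC547819, IQD13, PRP and ACS. The 59 had medians of 4.12, 36.6 and 18.3 FPKM in HN44 and of 6.42, 2.09 and 19.6 in SN14. They include STF-3, SCTF-1, SCA1 and CYP707A1A. In the 151, which include DREB1-like, GA20OX3 and SRC2, the medians were 16.4 FPKM in HN44-2, 17.5 in SN14-1 and 17.5 in SN14-3.

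The same division ran along the difference between the genotypes' high libraries. HN44-2 stood at least 1 above the mean of SN14-1 and SN14-3 on the log2(FPKM + 1) scale in 47 of the 59 members that were high in SN14-3, and at least 1 below it in none of them. Among the 69 members high in SN14-1, it stood at least 1 below in 41 and at least 1 above in 2. Over all eligible genes, HN44-2 stood at least 1 above the mean of SN14-1 and SN14-3 in 5.54% and at least 1 below in 4.21%. Across the 279 members the difference of SN14-1 from SN14-3 and that of HN44-2 from their mean had a Pearson r of -0.69 and a Spearman rho of -0.71, and these differences share SN14-1 and SN14-3. With the difference of HN44-1 from SN14-2, which shares no library with that of SN14-1 from SN14-3, r was -0.52 and rho -0.55. Over the 14678 other eligible genes r and rho were -0.03 and -0.07 for the first of these pairs and 0.02 and -0.06 for the last. The rule bounds how HN44-1 and SN14-2 lie against the other libraries in members and not in other genes. The values of members and of other genes are therefore no like comparison, and the last pair is no independent check of the first. These are descriptions of the 6 libraries across genes, with no test.

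**Figure D4:**
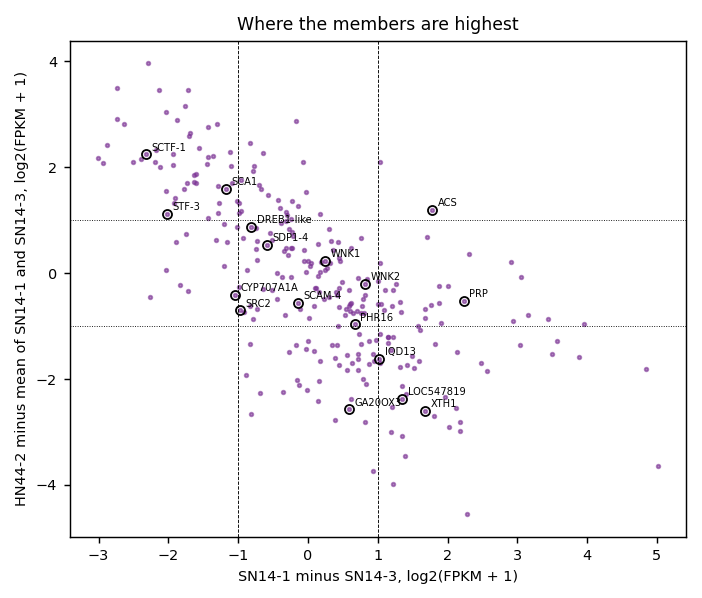
Each member by the difference of SN14-1 from SN14-3 (x axis) and of HN44-2 from the mean of SN14-1 and SN14-3 (y axis), in log2(FPKM + 1), with 17 named members circled and lines at -1 and 1. Members run from the upper left (SCTF-1, STF-3, SCA1) to the lower right (XTH1, LOC547819), with an r of -0.69.

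HN44 was set against SN14 to find leaf genes whose level goes with the genotype, the contrast the series names in its title. In limma's test on log2(FPKM + 1), with Benjamini-Hochberg adjustment over 27140 genes, 1 of the 279 members passed an adjusted p of 0.05, or 0.358%, where 3.78% of all tested genes passed and 1.44% passed as lower in HN44. The rule picks genes that vary widely within each genotype, which widens their errors in this test, so nothing about the members is read from this count. The 1 member was LOC100807151 on chromosome 18 (29246794 to 29248149). It was listed at 0 in HN44-1 and stood at 1.82 and 0.44 FPKM in HN44-2 and HN44-3, against 21.3, 6.68 and 15.9 in SN14-1 to SN14-3. Its log2 fold change was -3.16 ± 0.50 (SE; HN44 minus SN14, n = 3 libraries each; limma adjusted p = 0.0251). Without HN44-3 no member passed in limma (adjusted p = 0.137 for LOC100807151), where 0.553% of all tested genes passed. At an unadjusted p under 0.05 in that fit were 31 members, or 11.1%, and 14.1% of all tested genes.

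None of the 18 named members passed in limma with the 6 libraries. GA20OX3 had a log2 fold change of -2.48 ± 0.67 (SE, limma adjusted p = 0.0845), and XTH1 one of -2.56 ± 0.91 (SE, limma adjusted p = 0.135). The median log2 fold change was -0.38 over the members and 0.17 over all tested genes, and after median-of-ratios scaling of the libraries these were -0.53 and 0.02. The HN44 and SN14 ranges did not overlap in 29 members, or 10.4%, where this held for 33.9% of all tested genes. HN44 was wholly lower in 26 members, or 9.32%, close to the 10.5% of all tested genes. It was the higher in LOC100791597, LOC100783411 and LOC100778550, which are named because they are few and were chosen after their values were seen. Among all tested genes, those wholly higher in HN44 make up the rest of the 33.9% beyond the 10.5%. The rule picks genes that vary widely within each genotype, which makes their ranges overlap more readily. Nothing about the members is read from these counts.

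Without SN14-2, 23 members passed the adjusted p in limma, all lower in HN44, where 1.36% of all tested genes passed as lower. That fit keeps HN44-1, which the rule chose as low, and sets it against SN14-1 and SN14-3, which the rule chose as high, so its direction and count follow from the choice of members and are no result. Without both HN44-1 and SN14-2, which leaves 2 libraries a genotype, 8 passed, 7 lower and 1 higher in HN44, or 2.87%, where 0.707% of all tested genes passed. The 1 higher was LOC100791597, at 76.7 and 47.2 FPKM in HN44-2 and HN44-3 and 8.97 and 10.2 in SN14-1 and SN14-3. Its span overlaps that of LOC100795997, so reads may be divided between them. GA20OX3 was among the 7 lower, with a log2 fold change of -2.83 ± 0.33 (SE, limma adjusted p = 0.0404). This fit drops the libraries the rule chose as low and keeps those it chose as high, which narrows the members' spread, and it treats HN44-3 as a replicate of HN44-2, so its count too is no support for a difference between the genotypes.

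Some members were neighbours on a chromosome. In the order of NCBI-numbered genes in the table, 19 members lay directly beside another member, in 9 groups, and 8 of the groups were on a single strand. Of 227 eligible genes directly beside a member, 19 or 8.37% were members, where 1.87% of all eligible genes were. These counts include the overlapping pair on chromosome 16; with that pair counted once, an alternative chosen after seeing the data, 17 members lay in 8 groups and the share was 7.56% of 225 genes. The longest group held 3 genes on the minus strand of chromosome 13: LOC100787440 (21002234 to 21003610), LOC100785313 (21005327 to 21006773) and LOC100784249 (21010228 to 21011305). LOC100785313 stood at 0.05, 3.82 and 0.99 FPKM in HN44 and 22.1, 0.10 and 39.7 in SN14, and LOC100784249 at 0.28, 25.7 and 9.75 in HN44 and 4.17, 0.07 and 18.3 in SN14. The next gene on that strand, LOC100782104, had the same shape at 0, 6.97 and 3.35 FPKM in HN44 and 3.35, 0.17 and 9.64 in SN14, and its mean of 3.91 FPKM kept it out. The gene on the other side, LOC100790087, is on the plus strand and did not share the shape, at 21.7 to 29.9 FPKM in HN44 and 10.04 to 17.4 in SN14.

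On chromosome 14 LOC100791695 (43489105 to 43490294) and LOC100792222 (43499059 to 43500293) lay beside each other on the plus strand. On chromosome 6 LOC100793598 (8100221 to 8101427) and LOC100794117 (8105571 to 8106942) did so on the minus strand, and on chromosome 17 LOC100801634 and LOC100782365, a pair chosen after their values were seen, on the plus strand. LOC100801634 stood at 0.27, 7.22 and 3.46 FPKM in HN44 and 8.99, 0.22 and 17.95 in SN14, and LOC100782365 at 0.26, 7.40 and 3.70 in HN44 and 4.85, 0 and 18.2 in SN14. Of the 8 members with the largest smaller-of-both differences, 4 lay in such groups. Whether neighbours are copies of each other and share reads was not tested, since no sequence was used here. Coordinates are those of the authors' table, and the labels and file header name no genome build for them.

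**Figure D5:**
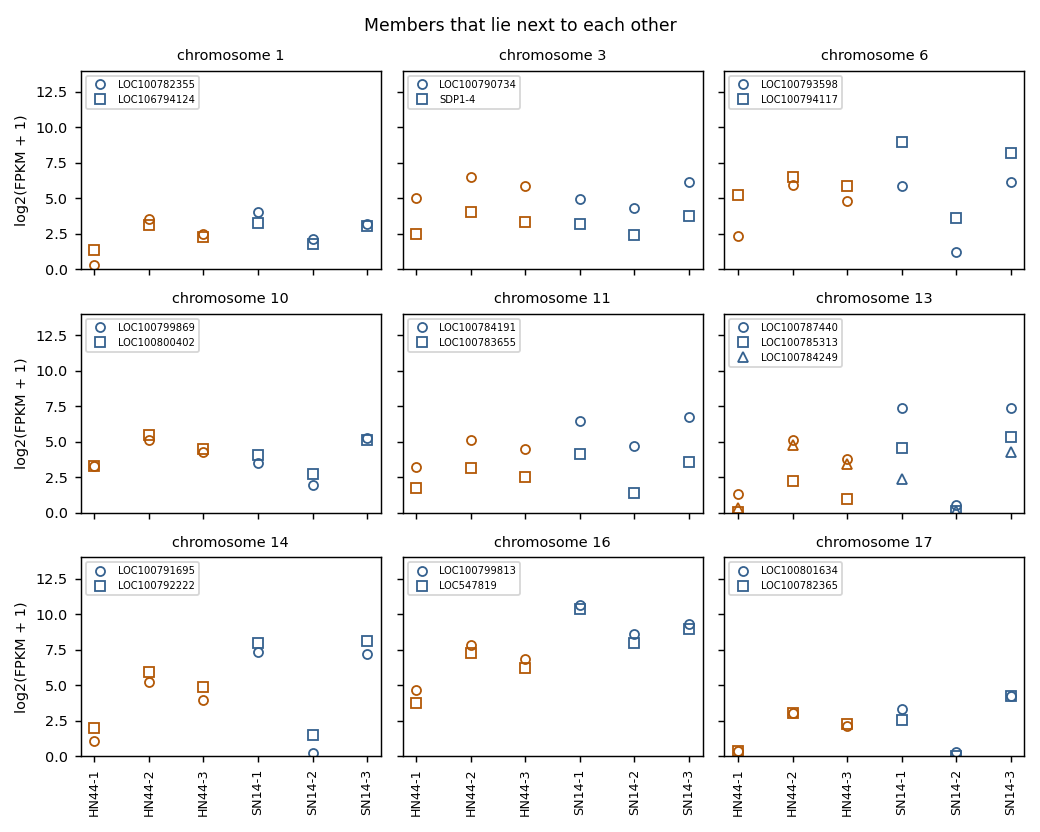
Levels, in log2(FPKM + 1), of the 19 members that lie next to another member, 1 panel for each of the 9 groups and 1 symbol for each gene, with HN44 orange and SN14 blue. In each panel the symbols of HN44-1 and SN14-2 lie below the others of their genotype, and on chromosomes 13 and 14 the SN14-2 values reach 0.46 FPKM or less for 4 of the 5 genes.

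Members were shorter genes than the rest. Their span from start to end in the table had a median of 2208 bases (quartiles 1359 and 3541), against 4149 bases (2641 and 6291) in the other eligible genes. Spans under 2000 bases were found in 124 members, or 44.4%, and in 14.8% of the others. RefSeq lists a single transcript for 84.5% of the 277 matched members and for 61.0% of the other matched eligible genes. The 200 genes that were high in HN44-1 and SN14-2 lay between, with a median of 2740 bases, 33.5% under 2000 bases and 75.6% with a single transcript. No test was made of these shares, and why they differ was not tested.

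Members lay on all 20 chromosomes, and 2 on sequences not placed on one. Chromosome 13 held the most, 26 of its 1039 eligible genes or 2.50%. By share, chromosome 1 was highest among the chromosomes at 2.88% and chromosome 8 lowest at 1.01%.

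The named eligible genes give a view of what was not in the set. Of 871 eligible genes with a name, 18 or 2.07% were members. Of 27 lists of gene names by function, 8 held at least 1 member and 19 held none; the longest list without one had 56 eligible genes, of which 1.87% is about 1 gene. Expansins and other wall-loosening proteins had 6 genes with a mean from 5 to below 500 FPKM. Of these, 5 were low in HN44-1 and 1, XTH1, in both. Of the 7 tested, none passed between genotypes in limma, where 3.78% of all tested genes did. In that test 4 of the 7 were at an unadjusted p under 0.05, and 27.3% of all tested genes were. The ethylene, gibberellin, brassinosteroid and cytokinin list had 24 genes with a mean in that range, of which 3 were members (ACS, DREB1-like and GA20OX3). DREB1-like is a transcription factor gene that the list's pattern took by its name. Of the list's 39 tested genes, 1 passed the adjusted p in limma, as lower in HN44, where 3.78% of all tested genes passed in either direction. In the same test 15 of the 39 were at an unadjusted p under 0.05, and 27.3% of all tested genes were. Of 56 nitrogen and amino acid genes none was a member, and 7 were high in both HN44-1 and SN14-2. None of 34 flavonoid genes, 33 lipid synthesis genes, 16 protein synthesis genes or 11 auxin genes was a member. Each of these lists is shorter than the one of 56 genes, for which 1.87% is about 1 gene. Nothing about these functions is therefore read from a list without a member. Of 45 clock and light-signalling genes, 1 was, and this was STF-3, which the list's pattern took by its symbol.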

How the data were processed

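Expression was read from 1 table of FPKM per gene for 6 leaf libraries, with each gene's start, end and strand, as deposited by the authors per the file headers. Tools listed without a role in the submitters' processing notes are DESeq2 1.4.5, RSEM 1.2.12, HISAT2 2.0.4 and Bowtie2 2.2.5. FPKM hides depth, so no counting error could be given, and values have 2 decimals. Names and chromosome numbers came from RefSeq (Glycine_max_v4.0), which matched 37544 of 38907 NCBI numbers and was not used for coordinates. The membership rule was applied to log2(FPKM + 1). HN44 was compared with SN14 with limma 3.58.1 in R 4.3.3 (variance trend, no covariate) on genes that reached 1 FPKM in 3 or more libraries, and adjusted by Benjamini-Hochberg over all of them. Both steps were run on simulated data with planted changes, which checks the code only. The planted members lay clear of the limit of -1. The simulated libraries were drawn independently, whereas HN44-3 followed HN44-1 and HN44-2 here. The members, name lists and tests were chosen with earlier results of these data known. Family patterns for the kin of named members were added after the members were seen. Named in the text are 17 of the 18 members with a symbol or synonym (1 is not reported here), the 8 with the largest smaller-of-both differences, the 5 with the highest mean, the 2 on each side of each limit, those that passed in limma and the longest neighbour groups; since 8 groups tie at 2 genes, those with genes named above were taken, and 1 more after its values were seen. The planned promoter motifs and proteins were not used here, because no sequence was at hand.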

Additional observations from a re-analysis of the deposited data

How the results depend on the processing

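The number of genes that met the rule was 279 and stayed within 1.5 times under other scalings, a pseudocount of 0.1, a lower mean limit and a mean without HN44-3 (283 to 363). It was 570 at a limit of -0.6, 145 at a limit of -1.5, and 185 when SN14-2 had to be low against each other SN14 library. Leaving out libraries gave 0 to 23 members past the adjusted p in limma between the genotypes, against 1, and 150 to 961 of all genes, against 1025. The members' count was 0 without HN44-1, HN44-3, SN14-1 or SN14-3 (11.1% to 22.9% of members at an unadjusted p under 0.05, and 14.1% to 26.2% of all genes), 0 with a pseudocount of 0.1 (19.0%, and 27.1% of all genes, at that p) and 8 without HN44-1 and SN14-2, where 192 of all genes passed. With the replicate number as a block 0 members and 174 genes passed (13.6% of members and 19.4% of all genes at an unadjusted p under 0.05); the labels do not say that numbers pair libraries, and deviations of same-numbered libraries correlated at -0.22, -0.44 and 0.03. HN44-1 correlated best with SN14-2, at 0.43. The adjusted p of LOC100807151 ran from 0.021 to 0.137 over the fits that leave out 1 library. The share of higher genes among all calls was 61.8%, or 47.0% when libraries were scaled by median of ratios. No library other than HN44-3 could be left out of the rule, since its differences need the other 5. None of the directions given for LOC100807151, GA20OX3, XTH1 and LOC100791597 was reversed under these alternatives. Depth is unknown, so values near 0 cannot be told from missed reads.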
